A study of Mus musculus with 16 samples.

Results

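Ephrins, Slits, netrins and their receptors are the genes described here, in prelimbic cortex (PL) neurons of C57BL/6J mice. Members were chosen by gene symbol: the ephrin ligands (Efna, Efnb), the Eph receptors (Epha, Ephb), the Slits, the Robo receptors, the netrins (Ntn), the netrin-Gs (Ntng), the Unc5 receptors and Dcc. The rule found 39 of the 39017 genes in the authors' deposited tables.

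RNA bound to tagged ribosomes (IP) was compared with the total RNA of the PL around the tagged cells (Input). The ribosome tag, GFP fused to the L10 protein, was delivered to PL by an adeno-associated virus, AAV-IV-GFPL10. A canine adenovirus carrying Cre recombinase, CAV-Cre, was placed where the axons end. Those targets were the nucleus accumbens, NAc, a striatal region; the amygdala's basolateral part, BLA; and the midbrain's ventral tegmental area, VTA. Per the labels, all 6 groups share both injections, the Input libraries included. The groups were PL-NAc IP and PL-NAc Input with 3 libraries each, PL-BLA IP and PL-BLA Input with 3 each, and PL-VTA IP and PL-VTA Input with 2 each, 16 in all. The design tags cells that took up both viruses. The labels used here give no age or sex and do not say whether a replicate is 1 animal or a pool, so the p-values reflect variation among these libraries alone, and that variation could be technical. In such bulk samples, fewer cells of a type and less RNA per cell cannot be told apart.

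Ephrins and Eph receptors signal in both directions between touching cells, and in most settings contact makes an axon or spine withdraw. Ephrin-A ligands are held in the membrane by a lipid anchor and bind mainly EphA receptors, while ephrin-B ligands span the membrane and bind mainly EphB receptors; EphA4 binds both classes. Slits are secreted proteins that repel axons through Robo receptors. Netrins attract axons through Dcc and repel them through the Unc5 receptors. Corticospinal and other subcerebral axons use several of these cues to choose side and target during development, and many of the genes stay active at adult synapses.

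Values per gene are the log2 fold change of IP over Input with its standard error (SE). The tables do not name its direction, which was read from glial markers. All 6 oligodendrocyte markers had negative values in each of the 3 projections, with medians of -3.23, -2.43 and -2.57 in PL-NAc, PL-BLA and PL-VTA in the authors' deposited tables. The labels and headers do not state whether the fit shrank fold changes toward 0, which would understate those of rarely read genes. SEs did not grow at the lowest counts, as they would without shrinkage. In PL-VTA the SE was 0.23 for Epha2, at a mean normalized count of 1.70, and 0.45 for Ephb4, at 17.97. The difference tests below take fold changes and SEs as deposited, and their all-gene shares include rarely read genes. The mean of normalized counts, pooled over the IP and Input libraries of a projection, serves as the level. Means were not set on a common scale between projections, and they include the IP, so they are not separate from the fold change. A gene was called at an adjusted p under 0.05. The excitatory marker list checked the label: 8 of 8 markers were higher in the PL-NAc IP and 7 of 8 in the PL-BLA IP, with medians of 0.62 and 0.55 in the authors' deposited tables. In PL-VTA 2 of 8 were higher and 2 lower, Neurod6 and Camk2a, with a median of 0.16 in the authors' deposited table.

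Levels spanned a wide range. Per kilobase of exon, Ephb6, a kinase-inactive Eph receptor, stood highest among the 39 members in every projection, with a mean normalized count of 840.5 per kb in PL-NAc and 1015.9 in PL-BLA, against 874.9 in PL-VTA in the authors' deposited tables. Unc5a came second in PL-NAc and PL-BLA and Efnb3 in PL-VTA. Unc5a had 518.9, 556.1 and 483.7 per kb and Efnb3 370.6, 351.8 and 583.5 per kb in the authors' deposited tables. Efna3, the most abundant ephrin-A, had 344.4, 365.7 and 325.5 per kb, and Epha4 165.5, 225.9 and 167.4 per kb. At the other end, Epha1, Epha2, Efna4 and Robo4 had means of 1.44 to 5.90 normalized counts, not divided by length, in the authors' deposited tables. Efna4 carried no adjusted p in any table, and Epha1, Epha2 and Robo4 carried none in PL-VTA. That left 38 members tested in each of PL-NAc and PL-BLA, and 35 in PL-VTA.

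**Figure D1:**
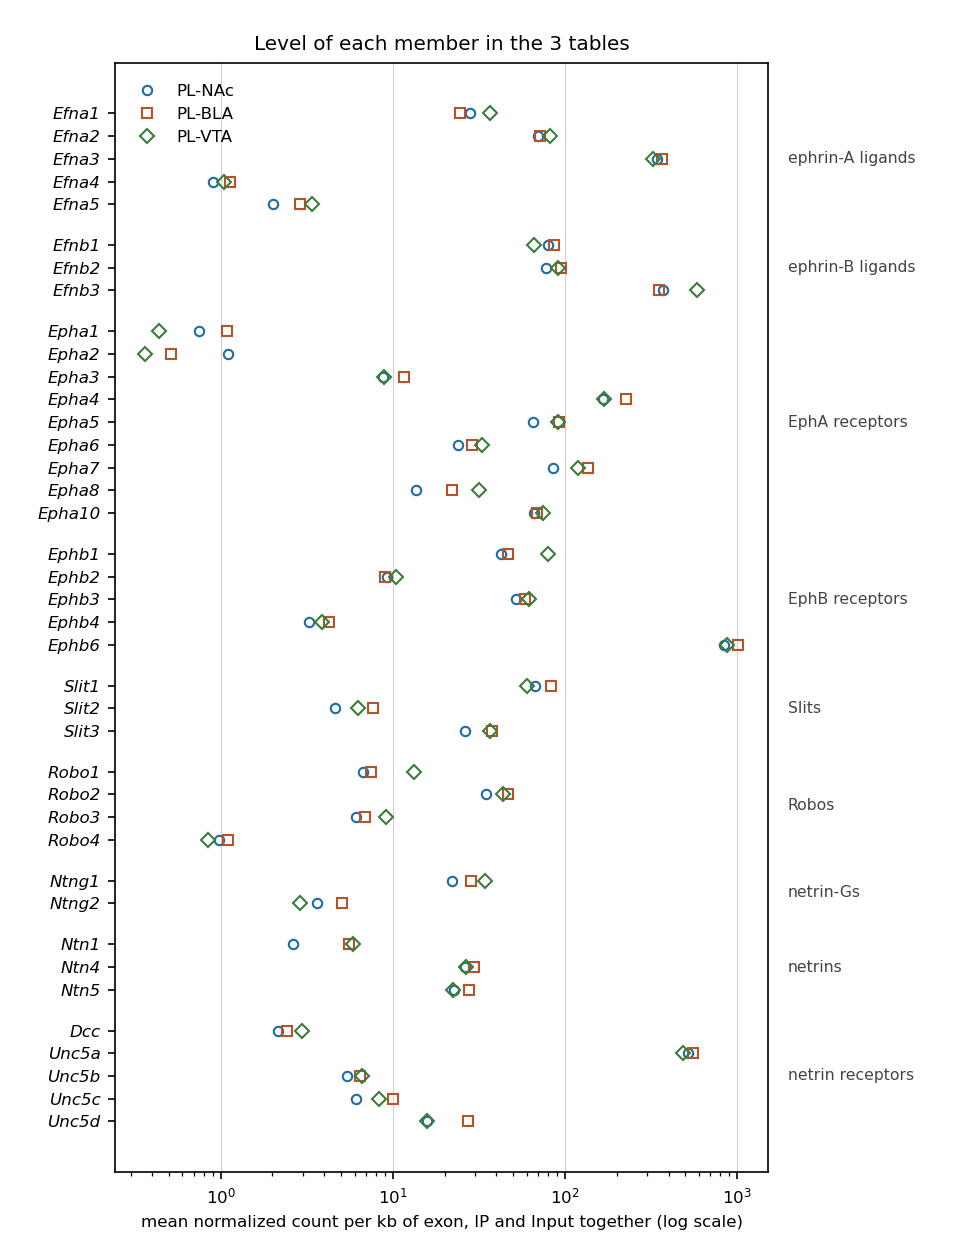
Mean normalized count per kb of exon (log axis) of each of the 39 members, 1 symbol per projection, IP and Input libraries together, grouped by role. Ephb6 and Unc5a lie at 483.7 per kb or more in all 3 projections, while Epha1, Epha2, Efna4 and Robo4 lie between 0.363 and 1.14.

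Promoters are shown for the 4 members with an entry in the RefSeq promoter set used here, among the 6 that differed between projections. The log2 fold change of Robo1 and Ephb1 was lower in PL-BLA than in PL-VTA, and that of Epha4 and Ephb6 was higher. On GRCm38 the genes span chromosome 16 from 72308306 to 73046095 (Robo1), chromosome 9 from 101922128 to 102354693 (Ephb1), chromosome 1 from 77367185 to 77515088 (Epha4) and chromosome 6 from 41605482 to 41620509 (Ephb6). The other two are Efnb3, on chromosome 11 from 69554092 to 69560205, and Unc5d, on chromosome 8 from 28646717 to 29219636. Each stretch runs from 250 bases before to 50 after the RefSeq start, 300 in all, on build GRCm38.p6. The lines give chr16:72662899-72663198 (plus strand) for Robo1, chr9:102354644-102354943 (minus strand) for Ephb1, chr1:77515039-77515338 (minus strand) for Epha4 and chr6:41605261-41605560 (plus strand) for Ephb6. The Robo1 start lies 354843 bases inside the gene as GENCODE draws it, so it is an internal start.

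Robo1: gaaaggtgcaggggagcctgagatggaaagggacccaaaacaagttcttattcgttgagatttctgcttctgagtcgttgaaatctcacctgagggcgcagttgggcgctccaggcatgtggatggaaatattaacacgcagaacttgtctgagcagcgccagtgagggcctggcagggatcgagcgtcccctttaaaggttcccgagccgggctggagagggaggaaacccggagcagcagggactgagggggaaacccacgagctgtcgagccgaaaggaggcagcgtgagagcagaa
Ephb1: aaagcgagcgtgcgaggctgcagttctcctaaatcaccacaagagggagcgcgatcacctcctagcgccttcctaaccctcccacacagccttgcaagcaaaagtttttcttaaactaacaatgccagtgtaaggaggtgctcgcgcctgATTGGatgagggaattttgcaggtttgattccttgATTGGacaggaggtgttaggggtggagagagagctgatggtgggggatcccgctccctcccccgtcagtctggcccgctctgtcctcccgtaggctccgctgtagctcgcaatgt
Epha4: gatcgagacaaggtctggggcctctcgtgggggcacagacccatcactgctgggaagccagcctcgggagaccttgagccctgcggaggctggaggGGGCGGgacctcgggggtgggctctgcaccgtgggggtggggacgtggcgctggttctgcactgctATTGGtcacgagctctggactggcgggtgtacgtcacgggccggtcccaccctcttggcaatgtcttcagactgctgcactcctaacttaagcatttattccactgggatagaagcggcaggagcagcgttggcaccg
Ephb6: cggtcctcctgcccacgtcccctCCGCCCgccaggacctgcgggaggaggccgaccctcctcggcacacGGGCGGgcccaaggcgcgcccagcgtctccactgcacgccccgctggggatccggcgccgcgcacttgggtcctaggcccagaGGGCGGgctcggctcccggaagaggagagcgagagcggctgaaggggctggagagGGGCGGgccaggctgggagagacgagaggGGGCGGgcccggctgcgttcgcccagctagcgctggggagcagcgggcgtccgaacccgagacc

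Capitals mark matches, on either strand, to 4 motifs: GGGCGG, the core of GC boxes; CCAAT, the core bound by NF-Y; the TATA box, TATAAA; and the full cyclic AMP response element, TGACGTCA. None of the marked matches overlap each other. The Ephb6 promoter holds GGGCGG 5 times, the Epha4 promoter holds it once together with 1 CCAAT, and the Ephb1 promoter holds CCAAT 2 times; the Robo1 window holds none of the 4. Of 32851 promoters of the same length, 35.7% hold GGGCGG, 37.4% CCAAT, 13.6% TATAAA and 1.79% TGACGTCA. The Robo1 and Ephb1 windows hold 15 and 14 CpG dinucleotides, those of Epha4 and Ephb6 17 and 34. Across all 34 members with an entry, 39 windows had a median of 21 CpG, against 7 over all promoters. These are descriptions of letters, and no binding was measured.

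In PL-NAc, 10 members rose and 7 fell among the 38 tested, which is 44.7%, against 43.1% of all 17998 genes, of which 21.4% rose and 21.7% fell. In PL-BLA 9 rose and 8 fell, again 44.7%, against 41.0% of 17668 genes, of which 20.8% rose and 20.2% fell. In PL-VTA 5 rose and 2 fell among 35, or 20.0%, against 21.5% of 15440 genes, of which 11.0% rose and 10.5% fell. The share called was thus near that of all genes in each projection. Changes of 2-fold or more were fewer. In PL-NAc 0 members rose that far, as did 1.68% of all genes, and 4 fell, Ephb4, Robo3, Ntn4 and Unc5b, as did 10.7%. In PL-BLA Slit1 rose that far, as did 1.61% of all genes, and 5 members fell, the same 4 and Ntn1, as did 9.17%. In PL-VTA Robo1 rose that far, as did 1.46% of all genes, and Ntn4 and Unc5d fell, as did 6.53%. The members' median log2 fold change was -0.06 in PL-NAc and -0.11 in PL-BLA, and in PL-VTA 0.11, in the authors' deposited tables; over all tested genes it was -0.0269, -0.0238 and 0.0185. The splits depend on the scale. With fold changes set relative to the median of the 8 excitatory markers, which lowers the median of all genes by 0.65, 0.57 and 0.14, PL-NAc had 0 members higher and 26 lower of 38, while 70.5% of all genes were called in either direction. On that scale PL-BLA had 2 higher and 23 lower of 38, beside 65.4% of all genes, and PL-VTA 4 higher and 2 lower of 35, beside 20.5% of all genes. Of members not called as deposited, 15 in each of PL-NAc and PL-BLA, and 0 in PL-VTA, were called lower on that scale, so below, passing or not passing refers to the deposited scale unless stated. Of the 10, 9 and 5 members that rose as deposited, 0, 2 and 4 stayed higher and 4, 0 and 0 were called lower. The marker median was subtracted as a fixed value, so calls on that scale leave out its own uncertainty. The 8 markers ranged from 0.17 to 1.0 in PL-NAc, 0.06 to 1.34 in PL-BLA and -0.82 to 0.57 in PL-VTA.

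**Figure D2:**
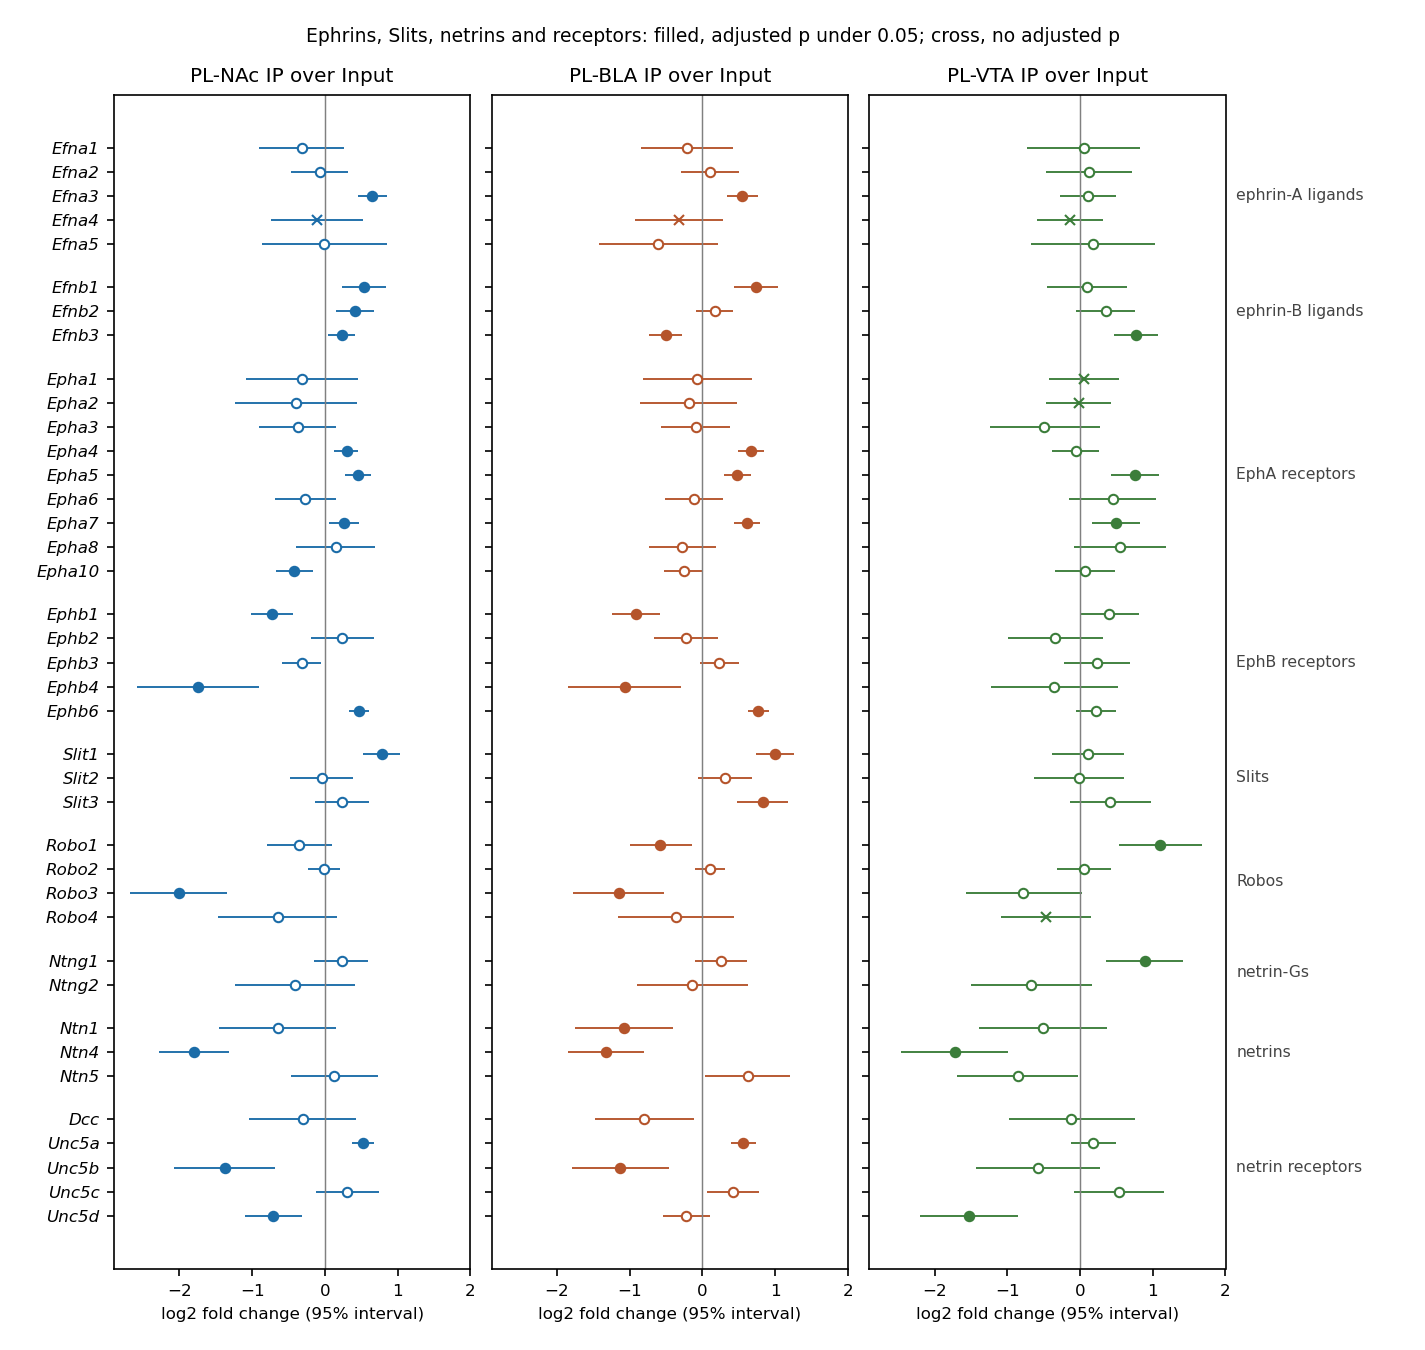
Log2 fold change of IP over Input (x axis) with its 95% interval for the 39 members, 1 panel per projection, as deposited; filled circles passed an adjusted p of 0.05, open circles did not, and crosses mark genes without an adjusted p. Robo1 and Efnb3 stand right of 0 in PL-VTA and left of it in PL-BLA; relative to the excitatory markers, 0 of the 10 filled circles right of 0 in PL-NAc stayed higher.

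Of the ephrin-B ligands, all 3 rose in the PL-NAc IP on the deposited scale, at a median of 0.41; relative to the excitatory markers all 3 values were negative and Efnb3 alone was called lower. Efnb1 was 0.54 (SE 0.15), Efnb2 0.41 (SE 0.13) and Efnb3 0.24 (SE 0.10) in the authors' deposited table. Efnb1 also rose in the PL-BLA IP, at 0.74 (SE 0.16), and was 0.09 (SE 0.28) in PL-VTA in the authors' deposited tables; in PL-BLA it was 0.19 and not called relative to the excitatory markers. Efnb3, a transmembrane ligand that stops corticospinal axons at the midline of the spinal cord, behaved otherwise. Its mean normalized count was 1179.6 in PL-NAc and 1119.9 in PL-BLA, against 1857.2 in PL-VTA in the authors' deposited tables. Its log2 fold change was 0.24 (SE 0.10) in PL-NAc and -0.50 (SE 0.11) in PL-BLA, against 0.77 (SE 0.15) in PL-VTA in the authors' deposited tables, or 117.8%, 70.6% and 170.8% of Input. It passed in both directions, with adjusted p of 0.0319, 5.07e-05 and 9.3e-06 by DESeq2. Relative to the excitatory markers it was -0.39, -1.05 and 0.61.

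Of the 4 ephrin-A ligands tested, Efna3 rose, in PL-NAc and PL-BLA, at 0.65 (SE 0.10) and 0.55 (SE 0.11) in the authors' deposited tables; relative to the excitatory markers it was 0.03 and 0.00 and not called. In PL-VTA it was 0.11 (SE 0.19) in the authors' deposited table, with a 95% interval of -0.27 to 0.49. Efna1, Efna2 and Efna5 passed in no projection, with values between -0.61 and 0.18 in the authors' deposited tables. Antisense exons of Gm15998 cover 14.1% of the Efna3 exon length, and reads of the pair cannot be told apart without strand.

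Among the 9 EphA receptors, Epha5 and Epha7 rose in all 3 projections on the deposited scale. Epha5 was 0.46 (SE 0.09), 0.48 (SE 0.10) and 0.75 (SE 0.16) in PL-NAc, PL-BLA and PL-VTA in the authors' deposited tables. Epha7 was 0.26 (SE 0.10), 0.61 (SE 0.09) and 0.49 (SE 0.17) in the authors' deposited tables. Relative to the excitatory markers, Epha5 stayed higher in PL-VTA at 0.59 and was -0.17 and -0.06 elsewhere, while Epha7 was called lower in PL-NAc at -0.36 and was not called in PL-BLA at 0.07 or in PL-VTA at 0.33. Epha4, the receptor through which ephrin-B3 halts corticospinal axons, had a mean normalized count of 1332.9 in PL-NAc and 1819.5 in PL-BLA, against 1348.4 in PL-VTA in the authors' deposited tables. It rose in PL-NAc at 0.30 (SE 0.09) and in PL-BLA at 0.67 (SE 0.09), and was -0.06 (SE 0.16) in PL-VTA, in the authors' deposited tables. Epha4 was called lower in PL-NAc at -0.33 relative to the excitatory markers, and was 0.12 and -0.22 in PL-BLA and PL-VTA. Epha10, which lacks kinase activity, fell in PL-NAc, at -0.42 (SE 0.13) in the authors' deposited table. Epha3, Epha6 and Epha8 had means of 64.1 to 175.3 normalized counts and passed nowhere, with values from -0.49 to 0.55 in the authors' deposited tables.

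The EphB receptors went both ways. Ephb6 rose in PL-NAc at 0.47 (SE 0.07) and in PL-BLA at 0.77 (SE 0.08) in the authors' deposited tables, and was 0.22 (SE 0.14) in PL-VTA. Relative to the excitatory markers it stayed higher in PL-BLA at 0.22. It was called lower in PL-NAc at -0.15, barely under the threshold (adjusted p 0.0471, Wald z). Ephb1, a kinase receptor for ephrin-B ligands that steers retinal axons at the optic chiasm, had means of 297.8, 327.7 and 559.8 normalized counts in PL-NAc, PL-BLA and PL-VTA in the authors' deposited tables. It fell to 60.3% of Input in PL-NAc and 52.9% in PL-BLA, at -0.73 (SE 0.15) and -0.92 (SE 0.17) in the authors' deposited tables. In PL-VTA its value was 0.40 (SE 0.21) and did not pass (adjusted p 0.169, DESeq2). Ephb4, known from venous endothelium, fell at -1.75 (SE 0.43) in PL-NAc and -1.07 (SE 0.40) in PL-BLA, with means of only 15.1 and 19.8 normalized counts, in the authors' deposited tables. Ephb2 and Ephb3 passed in no projection; Ephb3 was -0.32 (SE 0.14) in PL-NAc with an adjusted p of 0.0514 by DESeq2.

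Slit1 was the most enriched member in PL-NAc and PL-BLA on the deposited scale. Its mean normalized count was 397.4, 489.8 and 355.3 in PL-NAc, PL-BLA and PL-VTA in the authors' deposited tables. It rose 1.72-fold in PL-NAc at 0.78 (SE 0.13) and 2.0-fold in PL-BLA at 1.0 (SE 0.13), and was 0.11 (SE 0.25) in PL-VTA, in the authors' deposited tables. Relative to the excitatory markers it stayed higher in PL-BLA at 0.45 and was 0.16 and not called in PL-NAc. Slit3 rose in PL-BLA, with a log2 fold change of 0.83 (SE 0.17) per the authors' deposited table, but was 0.28 and not called relative to the excitatory markers. Slit2 passed in no projection, with values of -0.04 (SE 0.22), 0.31 (SE 0.19) and -0.01 (SE 0.31) in the authors' deposited tables.

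Of the Robo receptors, Robo2 passed in no projection, at -0.01 (SE 0.11), 0.10 (SE 0.11) and 0.06 (SE 0.19) in the authors' deposited tables, and relative to the excitatory markers it was called lower in PL-NAc and PL-BLA. Its 95% interval in PL-BLA was -0.10 to 0.31. Robo1, a receptor that repels axons on Slit binding, showed another course. Its mean normalized count was 111.3 in PL-NAc and 123.2 in PL-BLA, against 218.3 in PL-VTA in the authors' deposited tables. Its log2 fold change was -0.35 (SE 0.23) in PL-NAc, which did not pass, -0.58 (SE 0.22) in PL-BLA, which fell, and 1.10 (SE 0.29) in PL-VTA, which rose 2.15-fold, in the authors' deposited tables. The adjusted p were 0.219, 0.0219 and 0.00126 by DESeq2. On the scale of the excitatory markers Robo1 was called in all 3, lower at -0.97 and -1.12 in PL-NAc and PL-BLA and higher at 0.94 in PL-VTA. Robo3, which lets commissural axons cross the midline in the embryo, fell at -2.01 (SE 0.34) in PL-NAc and -1.15 (SE 0.32) in PL-BLA and was -0.78 (SE 0.41) in PL-VTA, with means of 42.0, 47.3 and 62.3 normalized counts, in the authors' deposited tables. Robo4, an endothelial Robo, had means of 4.45 to 5.90 normalized counts in the authors' deposited tables and passed nowhere.

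Netrins had means of 16.5 to 110.3 normalized counts, not divided by length, in the authors' deposited tables. Per kb of exon in PL-NAc, Ntn4 had 26.4, Ntn5 22.8 and Ntn1 2.63, at ranks 17, 20 and 33 of the 39 members. Ntn4, a netrin of basement membranes and vessels, was the 1 member that fell in all 3 projections, at -1.80 (SE 0.24), -1.32 (SE 0.27) and -1.72 (SE 0.37) in the authors' deposited tables, or 28.7%, 40.0% and 30.3% of Input. Ntn1, the classic attractant for Dcc, fell in PL-BLA, with a log2 fold change of -1.08 (SE 0.34) per the authors' deposited table, and was -0.65 (SE 0.41) and -0.51 (SE 0.45) in PL-NAc and PL-VTA; relative to the excitatory markers it was also called lower in PL-NAc, at -1.27. Ntn5 was 0.13 (SE 0.31), 0.62 (SE 0.30) and -0.86 (SE 0.42) in the authors' deposited tables and passed nowhere, and opposite-strand exons of Sec1 cover 23.4% of its exon length. Of the netrin-Gs, lipid-anchored relatives that bind the synaptic proteins Lrrc4c and Lrrc4 instead of Dcc, Ntng1 rose in PL-VTA at 0.89 (SE 0.27), and was 0.23 (SE 0.19) in PL-NAc and 0.26 (SE 0.18) in PL-BLA, in the authors' deposited tables. Ntng1 stayed higher in PL-VTA relative to the excitatory markers at 0.72. It was called lower in PL-NAc at -0.40, barely under the threshold. Its difference between projections did not pass: PL-NAc minus PL-VTA was -0.66 (SE 0.33, adjusted p 0.586, two-sided Wald z over 21559 genes). Ntng2 had means of 11.5 to 20.2 normalized counts and passed nowhere.

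Unc5a was the main netrin receptor by level. It rose in PL-NAc at 0.53 (SE 0.08) and in PL-BLA at 0.56 (SE 0.09) in the authors' deposited tables, and relative to the excitatory markers it was -0.10 and 0.02 and not called. In PL-VTA it was 0.18 (SE 0.16) in the authors' deposited table. Unc5d, which binds the adhesion protein Flrt2 as well as netrins and is known from upper-layer cortical neurons, fell in PL-NAc at -0.71 (SE 0.20) and in PL-VTA at -1.53 (SE 0.34), and was -0.22 (SE 0.16) in PL-BLA, in the authors' deposited tables. Its means were 145.6, 253.6 and 146.0 normalized counts in PL-NAc, PL-BLA and PL-VTA in the authors' deposited tables. Relative to the excitatory markers Unc5d was called lower in PL-BLA too, at -0.76. Unc5b, known from arteries, fell at -1.38 (SE 0.35) in PL-NAc and -1.13 (SE 0.34) in PL-BLA, with means of 33.9 and 40.3 normalized counts, in the authors' deposited tables. Unc5c passed nowhere, with values of 0.31 to 0.54, and Dcc was -0.30 (SE 0.37), -0.80 (SE 0.35) and -0.12 (SE 0.44) in the authors' deposited tables, with an adjusted p of 0.0549 by DESeq2 in PL-BLA.

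Of the members known from vessels, Ntn4 fell in all 3 projections, and Ephb4 and Unc5b fell in PL-NAc and PL-BLA. In PL-VTA Ephb4 and Unc5b were -0.36 and -0.58 and not called, and Robo4 passed nowhere. Markers of other cell types, endothelial and mural cells first, are given beside them. Of those 8 markers, 6 fell in PL-NAc and 7 in PL-BLA, against 3 in PL-VTA, with none higher, and the median values were -1.41, -1.31 and -0.88 per the authors' deposited tables. The summed means of these 8 markers were 642, 796 and 901.9 normalized counts in the authors' deposited tables, and none was at 0. Inhibitory neuron markers fell as well, 8 of 9 in PL-NAc and 9 of 9 in PL-BLA, against 7 of 9 in PL-VTA, while Sst was higher in PL-NAc at 0.26 (SE 0.09), with list medians of -1.81, -1.43 and -1.53 in the authors' deposited tables. Astrocyte markers had medians of -2.23, -1.94 and -1.78, and microglial markers -2.81, -2.05 and -2.04, in the authors' deposited tables. The astrocyte marker Aldh1l1 was 0.23 (SE 0.11) in PL-BLA and not called. Oligodendrocyte precursor markers had medians of -1.62, -0.90 and -1.01 in the authors' deposited tables. Of these, Cspg4 went the other way, called higher in PL-BLA at 1.02 (SE 0.25) and not called elsewhere, at 0.46 and 0.72. The part of these cells in the members' values was not tested.

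**Figure D3:**
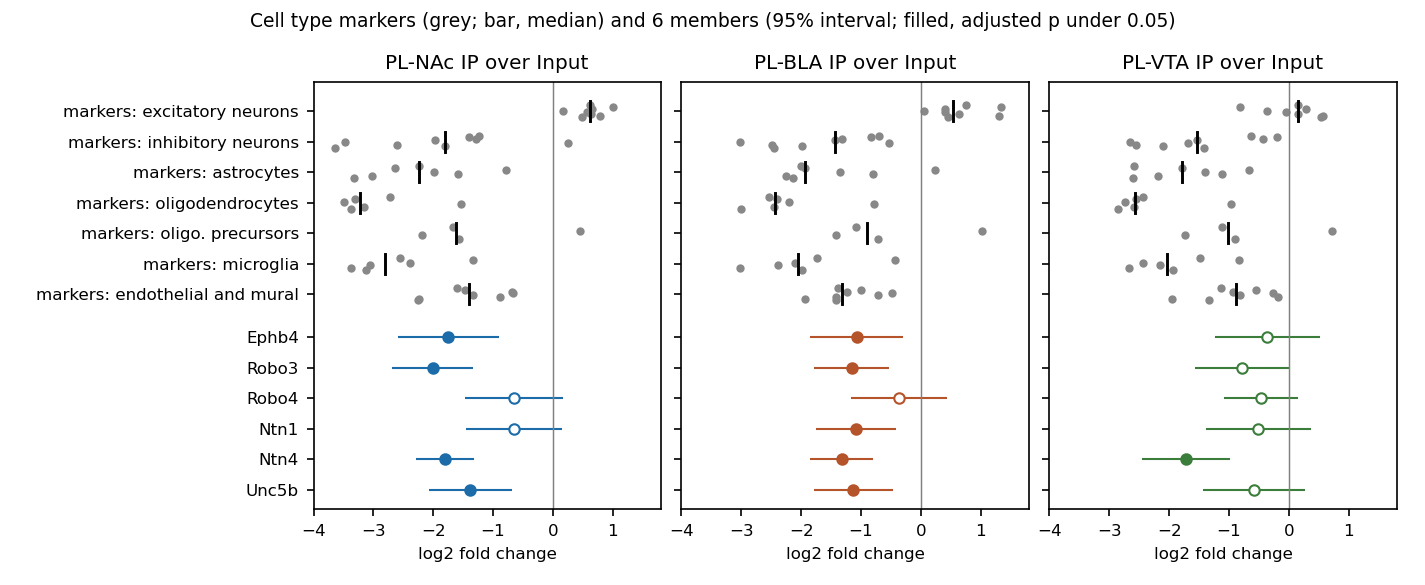
Log2 fold change of IP over Input (x axis) for the markers of 7 cell types (grey points, 1 per gene, with the median as a black bar), 1 panel per projection. Below them are 6 picked members, Ephb4, Robo3, Robo4, Ntn1, Ntn4 and Unc5b (points with 95% interval, filled at an adjusted p under 0.05). Robo4 was called lower in no projection, and other members that fell, such as Ephb1 and Unc5d, are not shown. Ntn4 lies at -1.32 to -1.80 in all 3 panels, within the range of every marker list except that of excitatory neurons.

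The differences between projections were tested directly, as the difference of log2 fold changes with a two-sided Wald z over all genes. Between PL-NAc and PL-BLA 1 of 39 members differed, or 2.56%, against 1.14% of all genes (0.391% higher and 0.751% lower in PL-NAc). Efnb3 was 0.24 in PL-NAc against -0.50 in PL-BLA, a difference of 0.74 (SE 0.15, adjusted p 0.000191, Wald z over 21981 genes). With standard errors widened by 1.5 this call ended, at an adjusted p of 0.277 (Wald z). At an unadjusted p under 0.05 there were 6 members, or 15.4%, against 6.98% of all genes.

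Between PL-NAc and PL-VTA 2 of 39 members differed, or 5.13%, against 2.29% of all genes (1.02% higher and 1.28% lower in PL-NAc), both lower in PL-NAc. Robo1 was -0.35 in PL-NAc against 1.10 in PL-VTA, a difference of -1.45 (SE 0.36, adjusted p 0.00562, Wald z over 21559 genes). Ephb1 was -0.73 in PL-NAc against 0.40 in PL-VTA, a difference of -1.13 (SE 0.25, adjusted p 0.000961, Wald z). With standard errors widened by 1.5 both calls ended, at adjusted p of 0.637 and 0.337 (Wald z). Efnb3 did not pass, at a difference of -0.54 with a 95% interval of -0.89 to -0.18 (adjusted p 0.0999, Wald z). With the difference set relative to that of the excitatory markers, a change of 0.46, Robo1 and Ephb1 still passed. The count was then 11 of 39, all lower in PL-NAc, beside 19.1% of all genes. This setting was chosen after seeing the data. Of the 8 markers, 4 were themselves called higher in PL-NAc than in PL-VTA: Neurod6, Slc17a7, Tbr1 and Camk2a. The reference thus differs between these projections too, and its median was subtracted as a fixed value.

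Between PL-BLA and PL-VTA 6 of 39 members differed, or 15.4%, against 3.05% of all genes (1.56% higher and 1.49% lower in PL-BLA), 3 in each direction. Efnb3 was -0.50 in PL-BLA against 0.77 in PL-VTA, a difference of -1.28 (SE 0.19, adjusted p 7.46e-09, Wald z over 21613 genes). Robo1 was -0.58 in PL-BLA against 1.10 in PL-VTA, a difference of -1.68 or 3.21-fold (SE 0.36, adjusted p 0.000281, Wald z). Ephb1 was -0.92 in PL-BLA against 0.40 in PL-VTA, a difference of -1.32 (SE 0.27, adjusted p 9.38e-05, Wald z). The PL-NAc and PL-BLA tests against PL-VTA share the PL-VTA libraries, so the 2 results for Robo1 and for Ephb1 are not independent.

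Higher in PL-BLA than in PL-VTA were Epha4, Ephb6 and Unc5d. Epha4 was 0.67 in PL-BLA against -0.06 in PL-VTA, a difference of 0.73 (SE 0.19, adjusted p 0.0059, Wald z). Ephb6 was 0.77 in PL-BLA against 0.22 in PL-VTA, a difference of 0.55 (SE 0.16, adjusted p 0.0193, Wald z). Unc5d was -0.22 in PL-BLA against -1.53 in PL-VTA, a difference of 1.31 or 2.49-fold (SE 0.38, adjusted p 0.0224, Wald z). With standard errors widened by 1.5, Efnb3 alone of the 6 passed. The calls for Epha4, Ephb6 and Unc5d ended when the difference was set relative to the excitatory markers, at 0.27, 0.09 and 0.86, while Efnb3, Robo1 and Ephb1 passed at -1.73, -2.14 and -1.78. In that setting 9 of 39 members differed, beside 16.8% of all genes. Of the 8 markers, 3 were themselves called higher in PL-BLA than in PL-VTA: Lingo1, Neurod6 and Slc17a7. The reference thus differs between these projections as well. Slit1 fell just short, at a difference of 0.89 (SE 0.29, adjusted p 0.0581, Wald z), and passed in 3 of 6 other settings, with adjusted p of 0.0354 to 0.0478 in those and 0.0581 to 1.0 in the others.

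**Figure D4:**
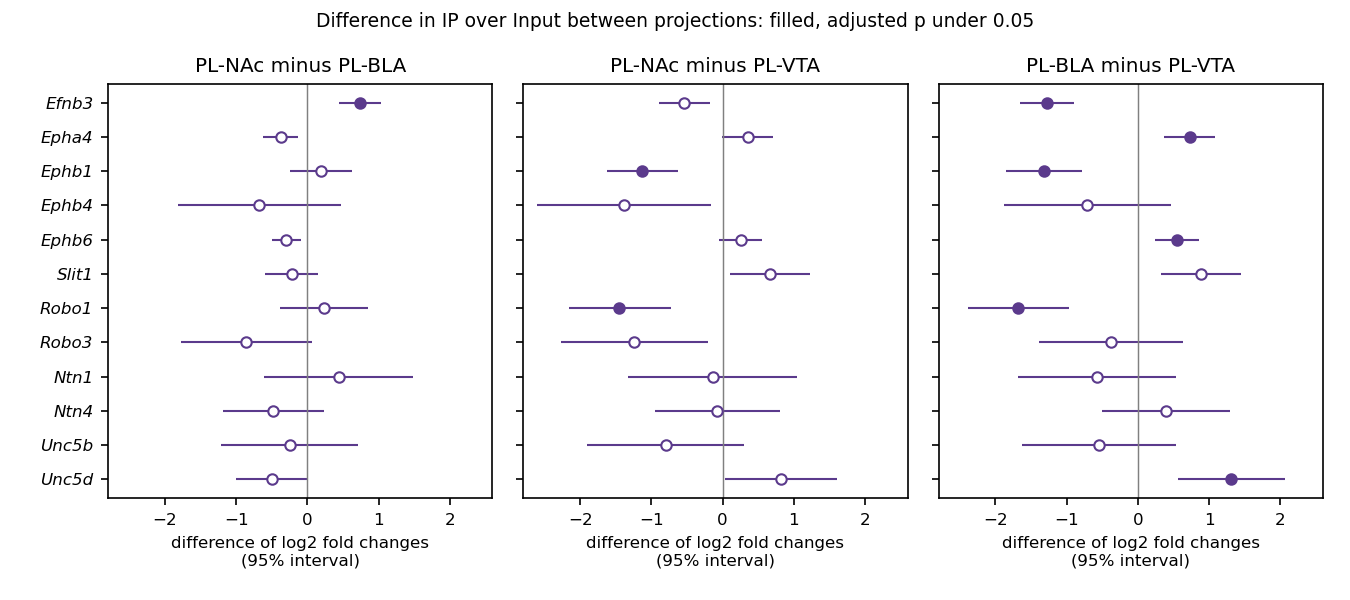
Difference of log2 fold changes between projections (x axis, first-named minus second-named, with 95% interval) for the 12 members that differed or were called at 2-fold or more; filled circles passed an adjusted p of 0.05. Efnb3, Ephb1 and Robo1 lie left of 0 in both panels against PL-VTA, and Epha4, Ephb6 and Unc5d lie right of 0 in PL-BLA minus PL-VTA, where relative to the excitatory markers they were not called, at 0.27, 0.09 and 0.86.

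As a description, the members' fold changes had a Pearson r of 0.84 between PL-NAc and PL-BLA over 38 genes, 0.59 between PL-NAc and PL-VTA over 35, and 0.38 between PL-BLA and PL-VTA over 35. Over all genes tested in both tables r was 0.90, 0.81 and 0.74. No library is shared between projections. Oligodendrocyte markers were lower in the IP of each projection, and the part of such markers' cells in these correlations was not tested.

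**Figure D5:**
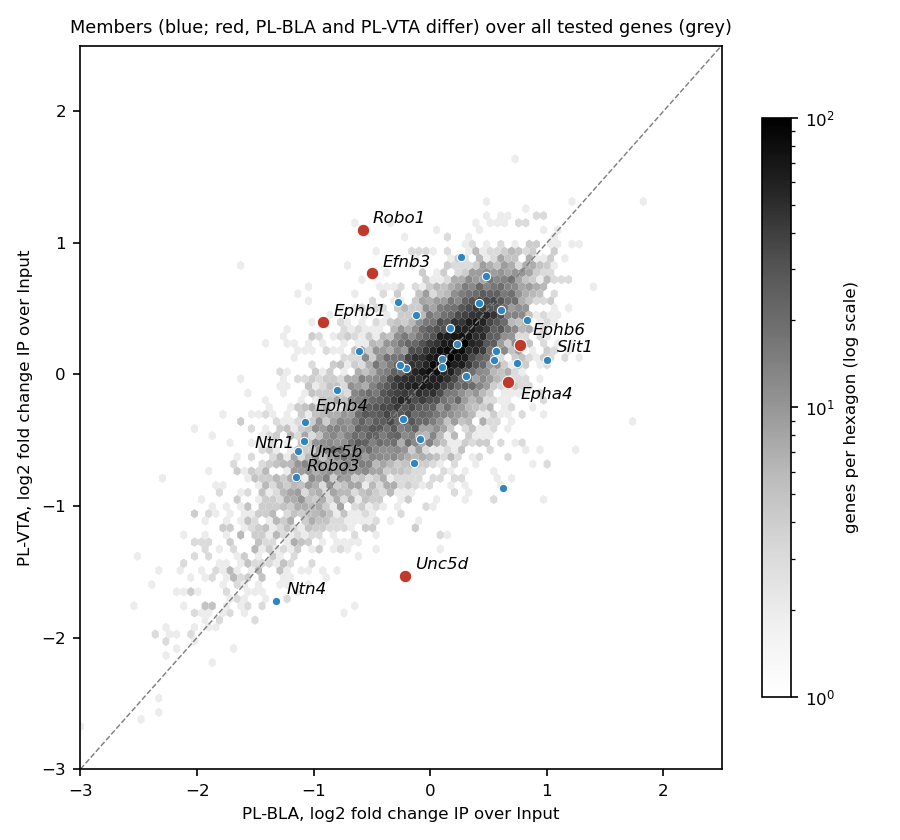
Log2 fold change of IP over Input in PL-BLA (x axis) and PL-VTA (y axis) for 35 members (blue; red where the 2 projections differed) over 15431 tested genes (grey, log scale), of which 46 lie outside the axes; the dashed line marks equal values. Robo1, Efnb3 and Ephb1 lie above the line and Unc5d, Epha4 and Ephb6 below it; relative to the excitatory markers the difference stays positive but uncalled for the last 3.

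Other genes of these pathways were read from 2 lists. Of 15 co-receptors and further ligands, 3 rose and 5 fell in PL-NAc, 4 rose and 3 fell in PL-BLA, and 4 rose and 1 fell among 14 tested in PL-VTA. These are 53.3%, 46.7% and 35.7% of the list, against 43.1%, 41.0% and 21.5% of all genes. On the scale of the excitatory markers, 0 were higher and 12 lower in PL-NAc, 2 higher and 12 lower in PL-BLA, and 2 higher and 1 lower in PL-VTA, or 80.0%, 93.3% and 21.4%, against 70.5%, 65.4% and 20.5% of all genes. In PL-NAc the largest changes among called genes were Rgma, a ligand of the Dcc relative neogenin, at -1.35 (SE 0.26), Nell2, a ligand of Robo3, at 0.71 (SE 0.06), and the glypican Gpc1, which binds Slits, at 0.54 (SE 0.08), in the authors' deposited table; relative to the excitatory markers Nell2 was 0.08 and Gpc1 -0.08, neither called. In PL-BLA they were Rgma at -1.65 (SE 0.28), Dscaml1, a relative of the netrin receptor Dscam, at -0.88 (SE 0.17), and Nell2 at 0.83 (SE 0.07), in the authors' deposited table. In PL-VTA they were Dscaml1 at 0.82 (SE 0.19), Flrt1 at 0.77 (SE 0.23) and the syndecan Sdc3 at -0.57 (SE 0.15) in the authors' deposited table. Dscaml1 differed between PL-BLA and PL-VTA by -1.70 (SE 0.26, adjusted p 1.31e-08, Wald z). Rgma differed there by -1.64 (SE 0.43, adjusted p 0.00735, Wald z). Nell2 differed by 0.49 (SE 0.15, adjusted p 0.0273, Wald z), near the excitatory markers' median difference of 0.46 in that comparison. Differences of these genes relative to the excitatory markers are not given.

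Of 29 intracellular effectors, 4 rose and 7 fell in PL-NAc, 4 rose and 11 fell in PL-BLA, and 2 rose and 5 fell in PL-VTA. These are 37.9%, 51.7% and 24.1% of the list, against 43.1%, 41.0% and 21.5% of all genes. On the scale of the excitatory markers, 1 was higher and 27 lower in PL-NAc, 1 higher and 26 lower in PL-BLA, and 1 higher and 6 lower in PL-VTA, or 96.6%, 93.1% and 24.1%, against 70.5%, 65.4% and 20.5% of all genes. Kalrn, an exchange factor for Rac that acts in dendritic spines, rose most, at 1.24 (SE 0.07), 1.85 (SE 0.08) and 1.30 (SE 0.34) in the authors' deposited tables, and was the 1 effector still higher in each projection relative to the excitatory markers, at 0.62, 1.30 and 1.14. Dock1, a Rac activator, fell in all 3 projections, at -1.48 (SE 0.21), -1.04 (SE 0.21) and -1.14 (SE 0.34) in the authors' deposited tables. Rgs3, whose product binds ephrin-B tails, fell in all 3 projections, at -1.47 (SE 0.22), -1.05 (SE 0.22) and -1.70 (SE 0.34) in the authors' deposited tables. Ablim1, an actin-binding protein, also fell in all 3 projections, at -0.84 (SE 0.08), -0.68 (SE 0.09) and -1.35 (SE 0.17) in the authors' deposited tables. Its value was the second largest change in PL-VTA. Between PL-BLA and PL-VTA Ablim1 differed by 0.67 (SE 0.20, adjusted p 0.027, Wald z) and Vav2 by -1.26 (SE 0.38, adjusted p 0.0368, Wald z). Between PL-NAc and PL-BLA Kalrn differed by -0.61 (SE 0.11, adjusted p 2.01e-05, Wald z). These differences relative to the excitatory markers are not given. The list's median was 99.9%, 98.2% and 100.8% of Input in PL-NAc, PL-BLA and PL-VTA.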

How the data were processed

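RNA of ribosome immunoprecipitates and of total PL was sequenced, with libraries from SMARTer Ultra Low and Nextera XT kits per the labels' protocols. Neither kit records strand. The submitters' processing notes name STAR 2.3, featureCounts and DESeq2, and give mm10 and GRCm38 as genome builds. Each deposited table gives the authors' mean normalized count as a signal, their log2 fold change with SE, their Wald score, and their p-value and adjusted p-value, per the file headers. No per-library values were used here. The score equalled fold change over SE, and recomputed p-values matched the deposited ones. The mean signal summed to 15437849, 16347808 and 16520414 across the authors' 3 deposited tables, in the order PL-NAc, PL-BLA, PL-VTA; the median SE of the members' log2 fold changes was 0.219, 0.202 and 0.287, so PL-VTA is the least precise.

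Differences between projections were tested with a two-sided Wald z and Benjamini-Hochberg adjustment over all genes with a p-value in both tables (scipy 1.17.1, pandas 2.3.3). The code was tried on simulated data with normal noise of the deposited SEs, which is what the test assumes. That trial therefore cannot show how the test behaves if those SEs are too small or shrunken. Each of the 3 pairs was adjusted on its own. Intervals are 95% normal intervals from the SE. Exon lengths came from GENCODE on GRCm38, promoters from RefSeq on GRCm38.p6, where 34 of 39 members matched. Members described in full differed between projections or were called at 2-fold or more; in the 2 pathway lists the 3 largest changes among called genes were named per projection. Members and lists were chosen with earlier results of these data known. Alternatives were a stricter threshold, other filters, other centring and wider standard errors; centring differences on the excitatory markers was added after seeing the data.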

Additional observations from a re-analysis of the deposited data

Results flagged for a closer look

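The difference in IP enrichment between projections passed its own test for 6 members in 9 comparisons. Efnb3 differed by 0.74 between PL-NAc and PL-BLA and by -1.28 between PL-BLA and PL-VTA. Ephb1 differed by -1.13 between PL-NAc and PL-VTA and by -1.32 between PL-BLA and PL-VTA. Robo1 differed by -1.45 and -1.68 in the same comparisons. Epha4 differed by 0.73, Ephb6 by 0.55 and Unc5d by 1.31 between PL-BLA and PL-VTA. The excitatory markers differed by a median of 0.46 in PL-NAc minus PL-VTA and also in PL-BLA minus PL-VTA, and their part in these differences was not tested beyond the centring given for them. The libraries behind each value cannot be viewed one by one in these tables.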

How the results depend on the processing

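No paired analysis was possible because the tables used hold no per-library values; leaving out single replicates was not run for the same reason. The counts of members called in IP against Input stayed within 1.5 times of those reported in every other setting, with 1 exception: relative to the excitatory markers PL-NAc had 26 in place of 17. Over all genes that setting called 12692 in place of 7751 in PL-NAc and 11550 in place of 7244 in PL-BLA, and 3160 in place of 3325 in PL-VTA. On that scale Efnb3, Epha4 and Ephb6 turned to -0.39, -0.33 and -0.15 in PL-NAc. With standard errors widened by 1.5, 0 members differed between PL-NAc and PL-BLA, 0 between PL-NAc and PL-VTA and 1, Efnb3, between PL-BLA and PL-VTA, while 26, 85 and 132 of all genes differed in place of 251, 494 and 660. With the difference set relative to the excitatory markers, an alternative chosen after seeing the data, 11 members differed between PL-NAc and PL-VTA and 9 between PL-BLA and PL-VTA, 3 of the 9 being among the 6 reported, while 4110 and 3629 of all genes differed. The cause was not tested. With only 2 libraries per PL-VTA group, a member that did not pass there is not shown to be at Input level.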

Other observations

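Some members lie side by side in the genome (GRCm38). Efna1, Efna3 and Efna4 lie on chromosome 3 with gaps of 32.8 and 10.4 kb. On the deposited scale Efna3 was called in PL-NAc and PL-BLA and Efna1 was not, while Efna4 carried no adjusted p. Relative to the excitatory markers Efna3 was not called, and Efna1 was called lower in PL-NAc and PL-BLA. Robo4 and Robo3 on chromosome 9 are 553 bases apart on opposite strands, and Robo3 fell in PL-NAc and PL-BLA while Robo4, at -0.65 (SE 0.42) and -0.36 (SE 0.41) in the authors' deposited tables, did not pass. Robo1 and Robo2 on chromosome 16 are 845.7 kb apart, and Robo1 differed between PL-VTA and the other projections while Robo2 did not pass in any of the 3 tables.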
